A study of Mus musculus with 2 samples.

Results

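The mouse genome codes for a large set of chemokines, small secreted proteins that guide the movement of leukocytes, and for a smaller set of receptors that read them. Their genes were taken from a table of liver RNA by symbol: every gene whose name is Ccl, Cxcl, Ccr, Cxcr or Cx3cl followed by a digit, plus Pf4, Ppbp and Xcl1. This gave 60 genes of 34556 symbols, of which 43 were ligands (2 of them pseudogenes, Ccl19-ps1 and Ccl19-ps3) and 17 were receptors. Liver was collected from BALB/c mice at 5 months of age and frozen before RNA was extracted with Trizol. The tested library is labelled SRSF2-KO and stands for a mouse with the Srsf2 gene (genotype SRSF2-/-) deleted in the liver. The other library is labelled WT, for wild type. Srsf2 codes for an SR protein, an RNA-binding factor that directs the choice of splice sites. Which promoter or liver cell type drove the deletion, whether animals were pooled, and which alleles the WT mouse carried are not stated in the labels.

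There was 1 library per genotype, so no value below has a replicate check and differences are described without tests or p-values. Levels are FPKM, fragments per kilobase of transcript scaled to the mapped fragments of the library, as deposited. Srsf2 itself stood at 45.3 FPKM in SRSF2-KO and 38.2 FPKM in WT (ratio 1.19, counting interval 1.10 to 1.29). The targeted gene therefore went against its label, and SRSF2-KO and WT below mean the library labelled SRSF2-KO and the library labelled WT. Depth, estimated from the spacing of the lowest values, was 24400000 fragments for SRSF2-KO and 19400000 for WT. Of 6 hepatocyte markers, Apoa1, the main protein of high-density lipoprotein, stood at 8305 FPKM in SRSF2-KO and 10936 FPKM in WT. All 5 markers above 0 were lower in SRSF2-KO, also under the 3 rescalings tried, with a summed level of 12318 FPKM against 19050 FPKM in WT. Alb, the albumin gene, was listed at 0 in both libraries. A listed 0 can thus be a failed estimate, so genes at 0 are described only as listed at 0. In bulk liver RNA, fewer cells of a type and less RNA per cell cannot be told apart.

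Chemokines are grouped by the spacing of their first cysteines into CC, CXC, CX3C and XC classes. CXC ligands with the residues Glu-Leu-Arg (ELR) before the cysteines attract neutrophils, the CXCR3 ligands are induced by interferons and attract T and NK cells, and many CC ligands attract monocytes, T cells or eosinophils. Chemokine receptors signal through inhibitory G proteins, and atypical receptors bind ligands without that signal and clear them. In injured liver, hepatocytes, Kupffer cells, stellate cells, bile duct cells and endothelium are all known sources of chemokines.

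Of the 60 genes, 47 were above 0 in at least 1 library and 13 were listed at 0 in both. A level of at least 1 FPKM in at least 1 library was reached by 17 genes, 25 more reached 0.1 FPKM, and 5 stayed under 0.1 FPKM. The comparison used log2((SRSF2-KO + 1)/(WT + 1)) of FPKM, called the log2 ratio here, where a positive value means a higher level in SRSF2-KO and low genes are understated. Among the 17 genes, 7 were at least 2-fold higher in SRSF2-KO (log2 ratio of at least 1), against 5.49% of all 11428 rows (4.27% of protein-coding rows) that passed the same filter. These were Cxcl14, Ccl2, Pf4, Cx3cl1, Cxcl10, Ccl5 and Cxcl16. None of the 17 was at least 2-fold lower, against 3.22% of all rows (2.97% of protein-coding rows). Passing the filter through SRSF2-KO alone favours higher values, and 4 of the 17 genes passed that way, while 1 passed through WT alone. Of the 12 genes that reached this level in both libraries, 4 were at least 2-fold higher and 0 lower, against 3.17% and 2.86% of 10198 such rows. With a pseudocount of 3 FPKM in place of 1, only Cxcl14 and Ccl2 stayed past 2-fold.

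**Figure D1:**
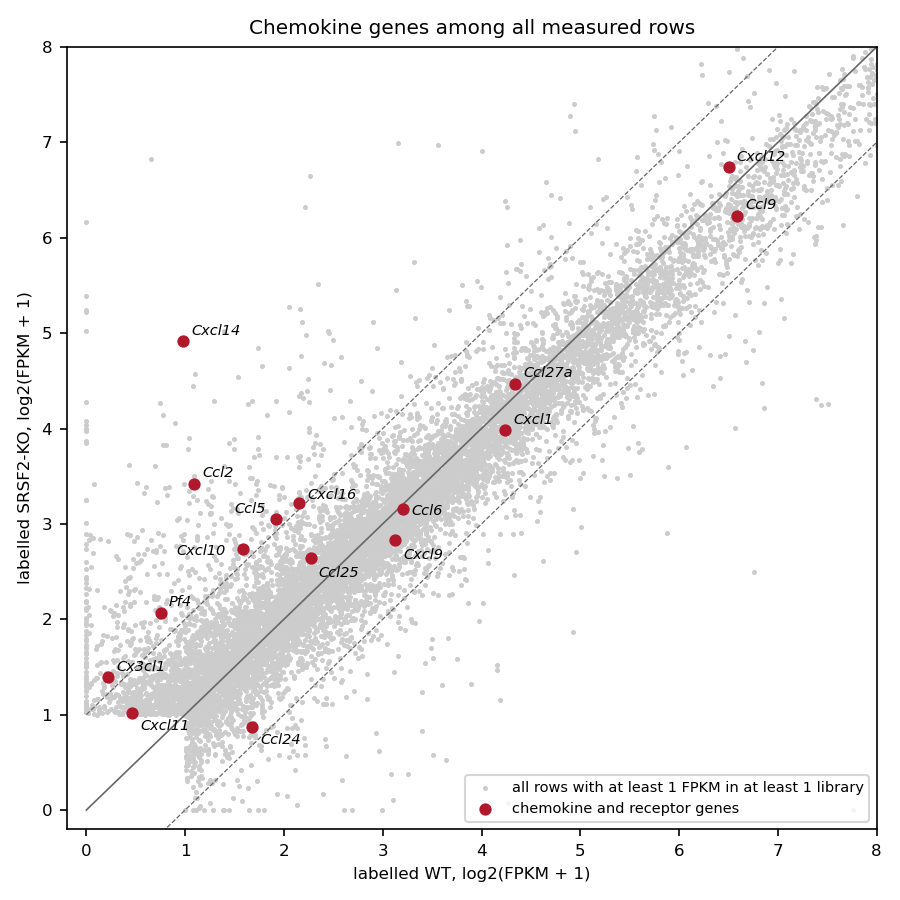
Each grey point is a row of the table that reached 1 FPKM in either library, placed by its level in WT (x axis) and in SRSF2-KO (y axis), both as log2(FPKM + 1), and the named points are 16 chemokine genes that passed this filter. The solid line marks equal levels, the dashed lines mark 2-fold differences, and rows above 8 on either axis are not drawn. Cxcl14 (log2 ratio 3.94) and Ccl2 (2.33) lie farthest above the upper dashed line, while Cxcl12, Ccl9, Ccl27a, Cxcl1 and Ccl6 lie between the dashed lines.

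Over the 47 genes above 0, the median log2 ratio was 0.24, beside 0.02 over all 18435 rows above 0. The level was higher in SRSF2-KO by any amount for 36 of them and lower for 11, while 52.5% of all rows above 0 were higher. Other genes of low level leaned the same way: among protein-coding rows with a mean of 0.1 to 1 FPKM, 68.1% were higher in SRSF2-KO, and of the 23 chemokine and receptor genes in that range 19 were. Summed over the 43 ligands, the level was 308 FPKM in SRSF2-KO and 259 FPKM in WT, or 278 against 258 FPKM without Cxcl14. Summed receptor levels were 7.12 FPKM in SRSF2-KO and 4.03 FPKM in WT.

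A few ligands made up most of the summed level in both libraries. In SRSF2-KO the order was Cxcl12 (106 FPKM), Ccl9 (74.2 FPKM), Cxcl14 (29.2 FPKM), Ccl27a (21.2 FPKM) and Cxcl1 (14.8 FPKM). In WT it was Ccl9 (95.3 FPKM), Cxcl12 (89.5 FPKM), Ccl27a (19.3 FPKM), Cxcl1 (17.9 FPKM) and Ccl6 (8.25 FPKM). Cxcl14 ranked 3 among the members in SRSF2-KO and 14 in WT, and Ccl2 ranked 6 in SRSF2-KO and 13 in WT. Cxcl12 made up 34.4% of the ligand sum in SRSF2-KO and 34.6% in WT, whereas Ccl9 made up 24.1% in SRSF2-KO and 36.8% in WT.

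**Figure D2:**
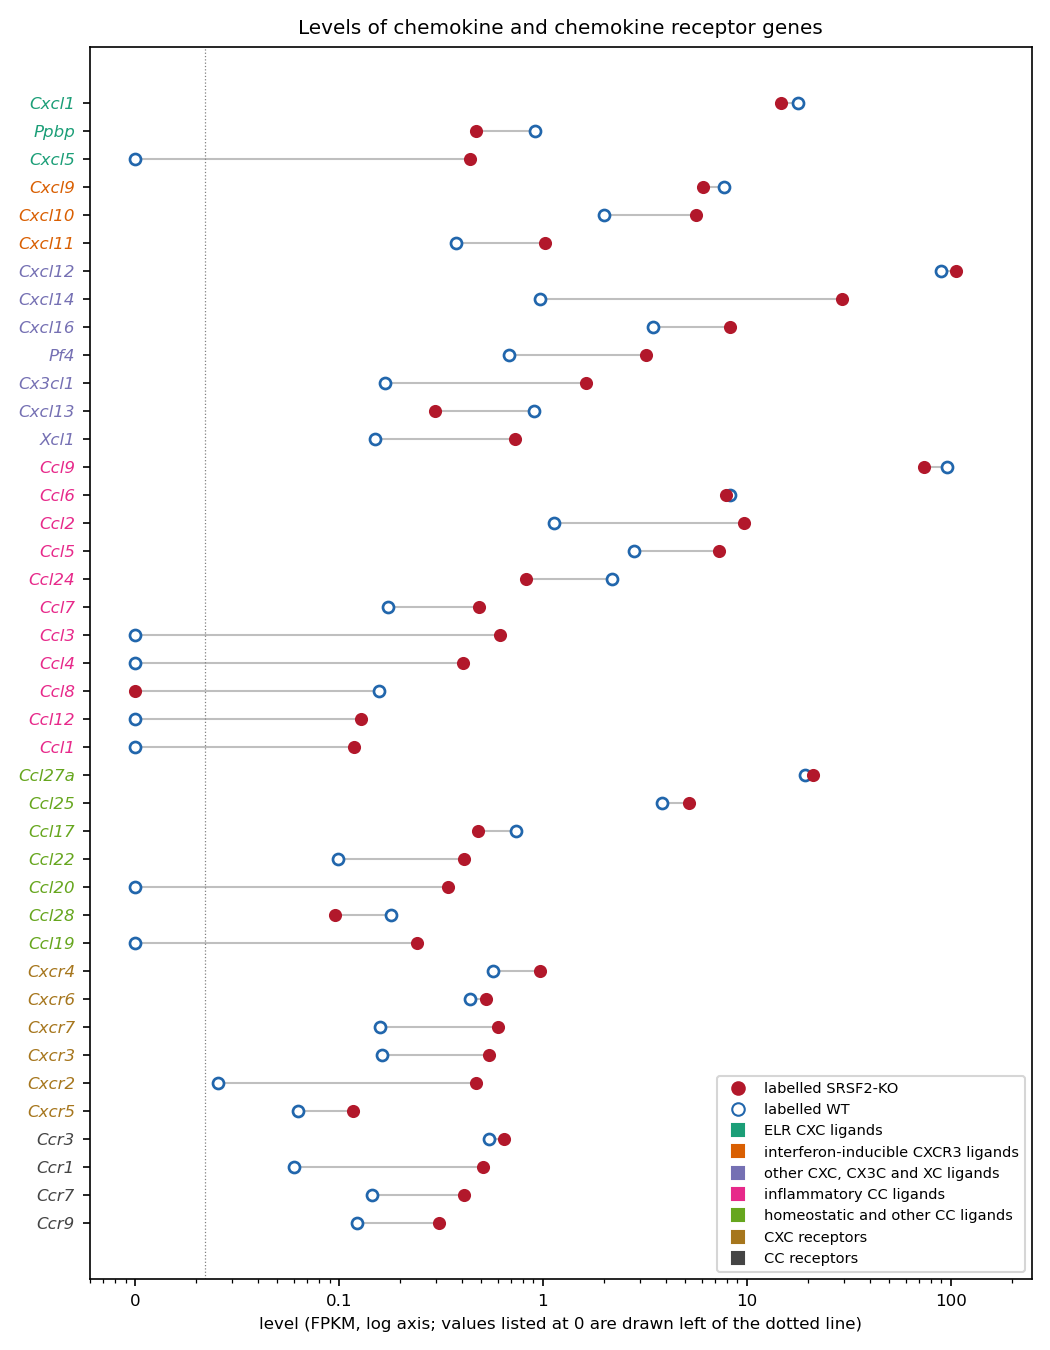
Levels of 41 chemokine and receptor genes that reached 0.1 FPKM in either library, on a log axis of FPKM, with filled points for SRSF2-KO and open points for WT and gene names coloured by role. Values listed at 0 are drawn left of the dotted line. The ligands span the whole axis up to 106 FPKM for Cxcl12, while the receptors drawn lie under 1 FPKM.

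Cxcl14 showed the largest difference of the family. This CXC ligand without an ELR motif is made by epithelia and fibroblasts and is known to attract monocytes and immature dendritic cells. Its level was 29.2 FPKM in SRSF2-KO and 0.972 FPKM in WT, which makes a ratio of 30.0 (95% counting interval 20.4 to 44.9, Clopper-Pearson). Such intervals here come from reads estimated from FPKM, depth and transcript length (about 1046 reads in SRSF2-KO and 28 in WT) and cover counting error only. Cxcl14 made up 9.50% of the ligand sum in SRSF2-KO and 0.376% in WT. Markers of stellate cells and fibroblasts moved the same way. Of 10 such markers, 9 were higher in SRSF2-KO and none was at 0, with a summed level of 209 FPKM in SRSF2-KO and 104 FPKM in WT, and their part in the Cxcl14 value was not tested. The bases before the start of Cxcl14 are shown because this gene differed most, and capitals mark a match to an interferon-stimulated response element (GAAA, any 2 bases, GAAA). This stretch lies at chr13:56296552-56296801 on the minus strand (RefSeq, GRCm38.p6), and the match begins 172 bases before the start.
Cxcl14: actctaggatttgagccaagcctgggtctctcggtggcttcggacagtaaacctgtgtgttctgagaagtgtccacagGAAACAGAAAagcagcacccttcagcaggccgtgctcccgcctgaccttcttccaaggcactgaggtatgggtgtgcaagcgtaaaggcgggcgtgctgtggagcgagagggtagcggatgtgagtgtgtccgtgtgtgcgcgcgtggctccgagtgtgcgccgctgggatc

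ELR ligands, the attractants of neutrophils through Cxcr2, were not higher in SRSF2-KO in sum. Their summed level was 15.8 FPKM in SRSF2-KO and 18.8 FPKM in WT, and nearly all of it was Cxcl1. Cxcl1, the mouse KC chemokine, stood at 14.8 FPKM in SRSF2-KO and 17.9 FPKM in WT, a ratio of 0.827 (counting interval 0.697 to 0.982) whose log2 ratio of -0.26 turned to 0.01 when the sums outside the 50 most abundant rows were made equal and to 0.07 with the TPM rescaling. Cxcl5, which epithelial cells release, was at 0.441 FPKM in SRSF2-KO, worth about 15 reads, and was listed at 0 in WT. Ppbp, a platelet chemokine, stood at 0.469 FPKM in SRSF2-KO and 0.920 FPKM in WT, within counting error (ratio 0.510, interval 0.202 to 1.16). Cxcl2 (0.0927 FPKM) and Cxcl3 (0.0543 FPKM) rested on about 3 and 1 reads in SRSF2-KO and were listed at 0 in WT. Cxcl15, a lung chemokine, was listed at 0 in both.

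Their receptor Cxcr2 was at 0.469 FPKM in SRSF2-KO and 0.0256 FPKM in WT, a ratio of 18.3 that rests on about 28 reads in SRSF2-KO and 1 in WT (interval 3.68 to 910). The paralog Cxcr1 was at 0.0430 FPKM in SRSF2-KO, about 1 read, and was listed at 0 in WT. Of 11 neutrophil markers, 5 were higher and 5 lower in SRSF2-KO (7 and 3 under each rescaling), with a summed level of 27.2 FPKM in SRSF2-KO and 9.66 FPKM in WT. Counting intervals lay above 1 for 4 of the 10 markers above 0 and below 1 for 0 of them. Over all rows with an interval these shares were 22.3% and 25.4%. Csf3r stood at 1.18 FPKM in SRSF2-KO and 0.340 FPKM in WT. S100a8 stood at 8.45 FPKM against 1.32 FPKM in WT and S100a9 at 15.9 against 5.97 FPKM in WT, while Ly6g, a defining surface marker, was listed at 0 in both libraries and Mpo in SRSF2-KO. The part of these markers in the Cxcr2 value was not tested.

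Cxcl1, Cxcl2 and Cxcl3 are close relatives that lie in 1 gene cluster, and their promoters are shown because they hold the same site at very different RNA levels. Capitals mark a shared run that matches the NF-kB consensus on both strands and, in Cxcl3, a TATA box. The site begins 71 bases before the start of Cxcl1 (chr5:90891135-90891244, plus strand), 97 bases before that of Cxcl2 (chr5:90903789-90903898, plus strand) and 73 bases before that of Cxcl3 (chr5:90785991-90786100, plus strand), all in RefSeq on GRCm38.p6.
Cxcl1: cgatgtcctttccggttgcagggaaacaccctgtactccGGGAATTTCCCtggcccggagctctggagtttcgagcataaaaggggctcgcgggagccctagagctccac
Cxcl2: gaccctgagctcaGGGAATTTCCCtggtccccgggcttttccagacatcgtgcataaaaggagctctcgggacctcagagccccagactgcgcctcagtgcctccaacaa
Cxcl3: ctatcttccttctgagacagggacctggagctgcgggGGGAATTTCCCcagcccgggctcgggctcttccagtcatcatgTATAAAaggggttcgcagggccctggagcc
With this site in common, Cxcl1 reached 14.8 FPKM in SRSF2-KO and 17.9 FPKM in WT, and its relatives stayed under 0.1 FPKM in both libraries.

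The 3 ligands of Cxcr3, which interferons induce, split. Cxcl10 stood at 5.66 FPKM in SRSF2-KO and 2.001 FPKM in WT, a ratio of 2.83 (counting interval 1.96 to 4.05). Cxcl11 stood at 1.02 FPKM in SRSF2-KO and 0.377 FPKM in WT, a ratio of 2.71 (interval 1.35 to 6.30), short of 2-fold on the log2 ratio (0.55) at this low level. Cxcl9 stood at 6.12 FPKM in SRSF2-KO and 7.70 FPKM in WT, a ratio of 0.795 (interval 0.691 to 0.915) whose log2 ratio of -0.29 turned to 0.02 with the TPM rescaling. The order of Cxcl9 and Cxcl10 was the same in both libraries, with Cxcl9 above, but the gap was far narrower in SRSF2-KO. Both Cxcl10 and Cxcl11 overlap Art3 in RefSeq, a gene at 0.542 FPKM in SRSF2-KO and 2.41 FPKM in WT, and the labels do not say whether counting used strand.

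Cxcr3, the receptor on activated T and NK cells, was at 0.542 FPKM in SRSF2-KO and 0.162 FPKM in WT (ratio 3.34, interval 1.16 to 10.8). All 10 T cell markers were higher in SRSF2-KO, none was at 0, and their sum was 5.02 FPKM in SRSF2-KO and 2.74 FPKM in WT. However, 9 of the 10 stayed under 1 FPKM in both libraries, and only 2 had a counting interval above 1. Among protein-coding rows with a mean of 0.1 to 1 FPKM, 68.1% were higher in SRSF2-KO. Of 8 NK cell markers, 4 were higher and 4 lower (6 and 2 with the TPM rescaling or equal sums outside the 50 most abundant rows). Their sum was 3.18 FPKM in SRSF2-KO and 2.71 FPKM in WT, with Prf1 at 0 in SRSF2-KO and Ncr1 at 0 in WT. Their part in the Cxcr3 value was not tested.

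The promoters of Cxcl10 and Cxcl9 are printed side by side because these neighbours went different ways. In Cxcl10 (chr5:92348890-92349139, minus strand) capitals mark, in order, the interferon-stimulated response element, an NF-kB consensus match, a second cluster of overlapping NF-kB consensus matches and an AP-1 site (TGANTCA). In Cxcl9 (chr5:92328080-92328329, minus strand) they mark a match to the TATA box letters (TATAAA), the only match in its window. It begins 195 bases before the start, against 30 for the TATAAA of Cxcl3. Both are from RefSeq on GRCm38.p6.
Cxcl10: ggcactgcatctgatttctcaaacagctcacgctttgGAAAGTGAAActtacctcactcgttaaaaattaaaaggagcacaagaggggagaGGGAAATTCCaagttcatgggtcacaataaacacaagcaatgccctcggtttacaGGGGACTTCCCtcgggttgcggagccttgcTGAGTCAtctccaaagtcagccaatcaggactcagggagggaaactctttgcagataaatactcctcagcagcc
Cxcl9: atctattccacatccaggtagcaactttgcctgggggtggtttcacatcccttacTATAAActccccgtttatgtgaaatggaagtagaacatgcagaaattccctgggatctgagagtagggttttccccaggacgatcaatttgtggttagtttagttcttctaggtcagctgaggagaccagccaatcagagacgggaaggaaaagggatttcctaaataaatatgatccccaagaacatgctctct

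RefSeq windows on GRCm38.p6 were at hand for 42 of the 60 genes (49 windows), and the 250 bases before each start were searched on both strands. The NF-kB consensus was present in 20.4% of these windows and in 7.25% of all 32851 promoter windows of the same length. The corresponding shares were 6.12% and 2.98% for the interferon-stimulated response element, 14.3% and 6.75% for TGANTCA, and 28.6% and 12.4% for TATAAA. No 2 different motifs overlapped in any of the 49 windows. NF-kB consensus matches stood before genes of every kind of outcome: Cxcl10 (higher in SRSF2-KO), Ccl9 (lower in SRSF2-KO as deposited), Ccr3 (within counting error) and Ccl20 (listed at 0 in WT). A match is a run of letters in a window and not evidence of binding. Ccl2, Ccl5, Ccl7, Ccl24, Cxcl5, Cxcl11 and Cxcl16 had no entry.

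The CXC, CX3C and XC ligands outside the ELR and Cxcr3 groups held 4 of the 7 genes at least 2-fold higher in SRSF2-KO, with Cxcl14, described above, among them. Cxcl12, the ligand of Cxcr4 that holds leukocytes and progenitors in tissue, was abundant at 106 FPKM in SRSF2-KO and 89.5 FPKM in WT, a ratio of 1.18 (interval 1.14 to 1.23). Cxcl16, a membrane-bound ligand of Cxcr6 that is also a scavenger receptor, stood at 8.29 FPKM in SRSF2-KO and 3.46 FPKM in WT, a ratio of 2.40 (interval 2.01 to 2.87). It overlaps Zmynd15 in RefSeq, which stood at 2.54 FPKM in SRSF2-KO and 0.904 FPKM in WT. Pf4, platelet factor 4, stored in platelet granules, was at 3.20 FPKM in SRSF2-KO and 0.683 FPKM in WT (ratio 4.68, interval 1.72 to 19.6). The other platelet chemokine, Ppbp, had the lower level in SRSF2-KO, within counting error.

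Cx3cl1, fractalkine, a membrane-bound ligand that also acts as an adhesion molecule, stood at 1.63 FPKM in SRSF2-KO and 0.168 FPKM in WT, a ratio of 9.73. Its counting interval depended on the transcript length assumed: it was 1.41 to 408 for the median length of its annotated coding transcripts and 5.23 to 21.2 for the longest. Its receptor Cx3cr1, carried by monocytes and macrophages, stood at 5.32 FPKM in SRSF2-KO and 0.235 FPKM in WT, a ratio of 22.6 (interval 14.0 to 40.7). Ligand and receptor were thus both higher in SRSF2-KO. Cxcl13, the B cell attractant, was the reverse at 0.296 FPKM in SRSF2-KO and 0.904 FPKM in WT (ratio 0.327, interval 0.115 to 0.831), while its receptor Cxcr5 was at 0.117 FPKM in SRSF2-KO and 0.0633 FPKM in WT, within counting error. Xcl1, which T and NK cells release to draw dendritic cells, was at 0.734 FPKM in SRSF2-KO and 0.151 FPKM in WT, worth about 6 reads and 1 read. Cxcl17 was listed at 0 in both.

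Among the inflammatory CC ligands, Ccl2 and Ccl5 were higher in SRSF2-KO and the most abundant member was lower as deposited. Ccl2, the main attractant of inflammatory monocytes, stood at 9.71 FPKM in SRSF2-KO and 1.13 FPKM in WT, a ratio of 8.56 (interval 4.92 to 16.0) from about 150 and 14 reads. Ccl5, which draws T cells and monocytes through Ccr1, stood at 7.27 FPKM in SRSF2-KO and 2.79 FPKM in WT, a ratio of 2.61 (interval 1.53 to 4.59). Ccl7, a close relative of Ccl2, was at 0.488 FPKM in SRSF2-KO and 0.174 FPKM in WT, within counting error (interval 0.530 to 27.5). Ccl3 (0.615 FPKM, about 9 reads) and Ccl4 (0.407 FPKM, about 5 reads) were detected in SRSF2-KO and listed at 0 in WT. These 2 genes overlap each other in RefSeq, so reads between them may be hard to assign.

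Ccl9, a ligand of Ccr1 made by myeloid cells, was measured from about 5115 reads in SRSF2-KO and 5224 in WT. Its level was 74.2 FPKM in SRSF2-KO and 95.3 FPKM in WT, a ratio of 0.778 (interval 0.749 to 0.809), and its log2 ratio stayed below 0 under every rescaling. Its neighbour Ccl6 stood at 7.91 FPKM in SRSF2-KO and 8.25 FPKM in WT, within counting error, and its log2 ratio of -0.05 turned positive under all 3 rescalings (0.01 to 0.27). Ccl24, eotaxin-2, an attractant of eosinophils that macrophages make, was lower in SRSF2-KO at 0.823 FPKM, against 2.19 FPKM in WT (ratio 0.376, interval 0.188 to 0.708). With a pseudocount of 0.1 FPKM it passed 2-fold lower (log2 ratio -1.31). Ccl1, Ccl8 and Ccl12 each rested on about 1 read in 1 library, and Ccl11 and Ccl26 were listed at 0 in both.

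Markers of monocytes and macrophages moved with Ccl2. Of 10, 8 were higher in SRSF2-KO and none was at 0, with a summed level of 139 FPKM in SRSF2-KO and 62.8 FPKM in WT. Trem2 stood at 5.22 FPKM in SRSF2-KO and 0.387 FPKM in WT, and Gpnmb at 3.38 FPKM in SRSF2-KO and 0.0139 FPKM in WT. The lower 2 were Emr1, the gene of the macrophage marker F4/80, at 2.17 FPKM in SRSF2-KO and 4.33 FPKM in WT, and Csf1r, the macrophage growth factor receptor, at 10.3 FPKM in SRSF2-KO and 11.6 FPKM in WT, whose log2 ratio of -0.16 turned to 0.17 with the TPM rescaling. All 5 markers of resident Kupffer cells were lower, with a sum of 51.8 FPKM in SRSF2-KO and 110 FPKM in WT, led by Timd4 at 0.540 FPKM in SRSF2-KO and 3.27 FPKM in WT. With the TPM rescaling or equal sums outside the 50 most abundant rows, Marco turned and 4 were lower. The part of these cells in the values of Ccl2, Ccl9 or Ccl24 was not tested.

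The homeostatic and other CC ligands differed little at their top and were scarce below it. Ccl27a, known from skin as an attractant of T cells, stood at 21.2 FPKM in SRSF2-KO and 19.3 FPKM in WT, within counting error (ratio 1.10, interval 0.866 to 1.40). Its locus overlaps Il11ra1 (10.9 FPKM in SRSF2-KO and 13.4 FPKM in WT), and the near-identical copy Ccl27b was listed at 0 in both, so the split between these genes is uncertain. Ccl25, which draws T cells to the gut through Ccr9, stood at 5.22 FPKM in SRSF2-KO and 3.82 FPKM in WT (ratio 1.37, interval 0.959 to 2.002).

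Ccl22, a ligand of Ccr4 made by dendritic cells and macrophages, was at 0.411 FPKM in SRSF2-KO and 0.0994 FPKM in WT (ratio 4.14, interval 1.33 to 16.0). The other Ccr4 ligand, Ccl17, was at 0.478 FPKM in SRSF2-KO and 0.739 FPKM in WT, and Ccl28 at 0.0962 FPKM in SRSF2-KO and 0.181 FPKM in WT, both within counting error. Ccl20, the ligand of Ccr6, rested on about 5 reads in SRSF2-KO (0.343 FPKM) and Ccl19, the ligand of Ccr7, on about 3 (0.240 FPKM), and both were listed at 0 in WT. The Ccl21 copies and both Ccl19 pseudogenes were listed at 0 in both libraries.

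Receptors were scarce in whole liver and mostly higher in SRSF2-KO: of 14 above 0, 13 were higher there and 1 was lower. Their median log2 ratio was 0.17, and 5 of the 14 had a counting interval above 1. For comparison, 68.1% of protein-coding rows with a mean of 0.1 to 1 FPKM were higher in SRSF2-KO. Ccr1, which reads Ccl3, Ccl5, Ccl6 and Ccl9, stood at 0.510 FPKM in SRSF2-KO and 0.0600 FPKM in WT, a ratio of 8.51 (interval 2.74 to 44.6) from about 33 and 3 reads. Cxcr7, an atypical receptor that clears Cxcl12, stood at 0.604 FPKM in SRSF2-KO and 0.159 FPKM in WT (ratio 3.79, interval 1.36 to 12.3). Cxcr4, the signalling receptor of Cxcl12, was at 0.968 FPKM in SRSF2-KO and 0.569 FPKM in WT, within counting error (interval 0.858 to 3.60).

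Ccr7, which guides dendritic cells and T cells to lymph nodes, was at 0.410 FPKM in SRSF2-KO and 0.145 FPKM in WT (ratio 2.83, interval 1.02 to 9.86). Ccr9 was at 0.308 FPKM in SRSF2-KO and 0.122 FPKM in WT, with an interval of 0.977 to 6.64, or 1.29 to 5.29 for its longest transcript. Ccr3, the eosinophil receptor, stood at 0.643 FPKM in SRSF2-KO and 0.544 FPKM in WT, and Cxcr6, the receptor of Cxcl16, at 0.525 FPKM in SRSF2-KO and 0.438 FPKM in WT, both within counting error. Ccr10 and Ccr6 rested on about 3 reads in SRSF2-KO and about 1 read in WT and were listed at 0 in the other library. Ccr4, Ccr8 and Ccr1l1 were listed at 0 in both. The 5 dendritic cell markers summed to 3.11 FPKM in SRSF2-KO and 2.41 FPKM in WT with none at 0, and 6 B cell markers to 3.07 FPKM in SRSF2-KO and 1.34 FPKM in WT with none at 0.

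**Figure D3:**
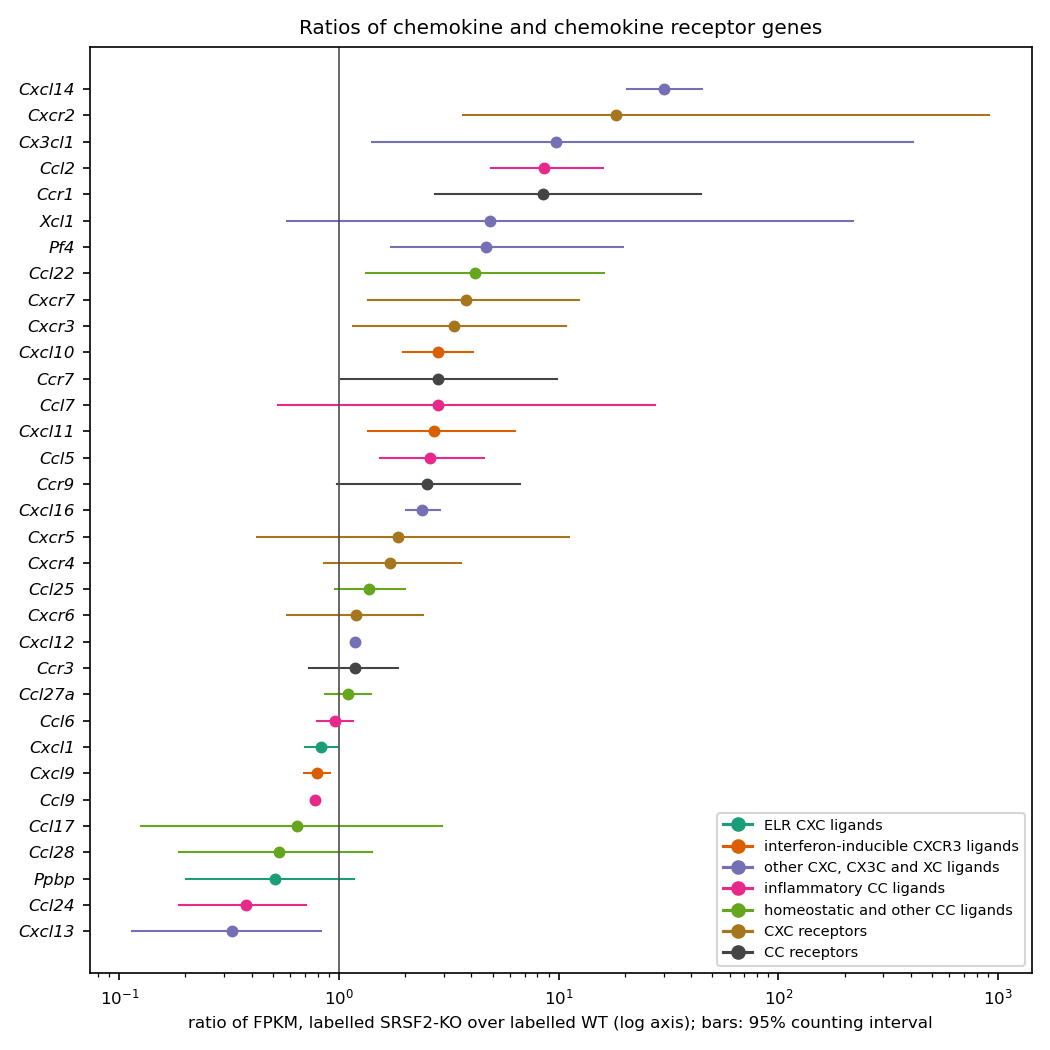
Ratio of FPKM in SRSF2-KO over WT on a log axis for the named genes above 0 in both libraries and with at least 0.1 FPKM in at least 1, with 95% counting intervals as bars and colours by role. The vertical line marks equal levels. Cxcl14 has the highest ratio (30.0) with a narrow interval, Cxcr2 (18.3) and Cx3cl1 (9.73) have wide ones, and Ccl24 (0.376) and Cxcl13 (0.327) lie lowest.

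Counting error alone left 17 of the 47 genes with an interval above 1 and 5 with an interval below 1. Over all 15081 rows with an interval these shares were 22.3% and 25.4%. The 5 genes below were Ccl9, Ccl24, Cxcl1, Cxcl9 and Cxcl13. Of the same 47 genes, 11 were above 0 in SRSF2-KO and listed at 0 in WT, and 2 the other way round, Ccl8 and Ccr6. Among protein-coding rows above 0, 6.19% were above 0 in SRSF2-KO and listed at 0 in WT. That share covers rows of every level, while all 11 genes stayed under 1 FPKM. With a mean of 0.1 to 1 FPKM, 5 of 23 chemokine and receptor genes were so listed, beside 129 of 2996 protein-coding rows. Of the 11, Cxcl5 with 15 reads and Ccl3 with 9 rested on the most, and these are also among the 17 with an interval above 1.

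Neighbouring chemokine genes did not share 1 level or 1 direction. RefSeq order on GRCm38.p6 places Ccl2, Ccl7, Ccl11, Ccl12, Ccl8 and Ccl1 side by side on chromosome 11, and Ccl2 alone of these 6 reached 1 FPKM. Farther along the same chromosome, Ccl5 (log2 ratio 1.13) adjoins Ccl9 (-0.36) and Ccl6 (-0.05), followed by Ccl3 and Ccl4, which were listed at 0 in WT. On chromosome 5 the run from Cxcl5 to Cxcl2 held 7 genes, of which Cxcl1 and Pf4 reached 1 FPKM in SRSF2-KO and Cxcl1 alone in WT. Pf4 (log2 ratio 1.32) lies beside Ppbp (-0.39), the platelet chemokines of this run. On chromosome 8, Cx3cl1 (1.17) lies between Ccl22 (0.36) and Ccl17 (-0.23).

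**Figure D4:**
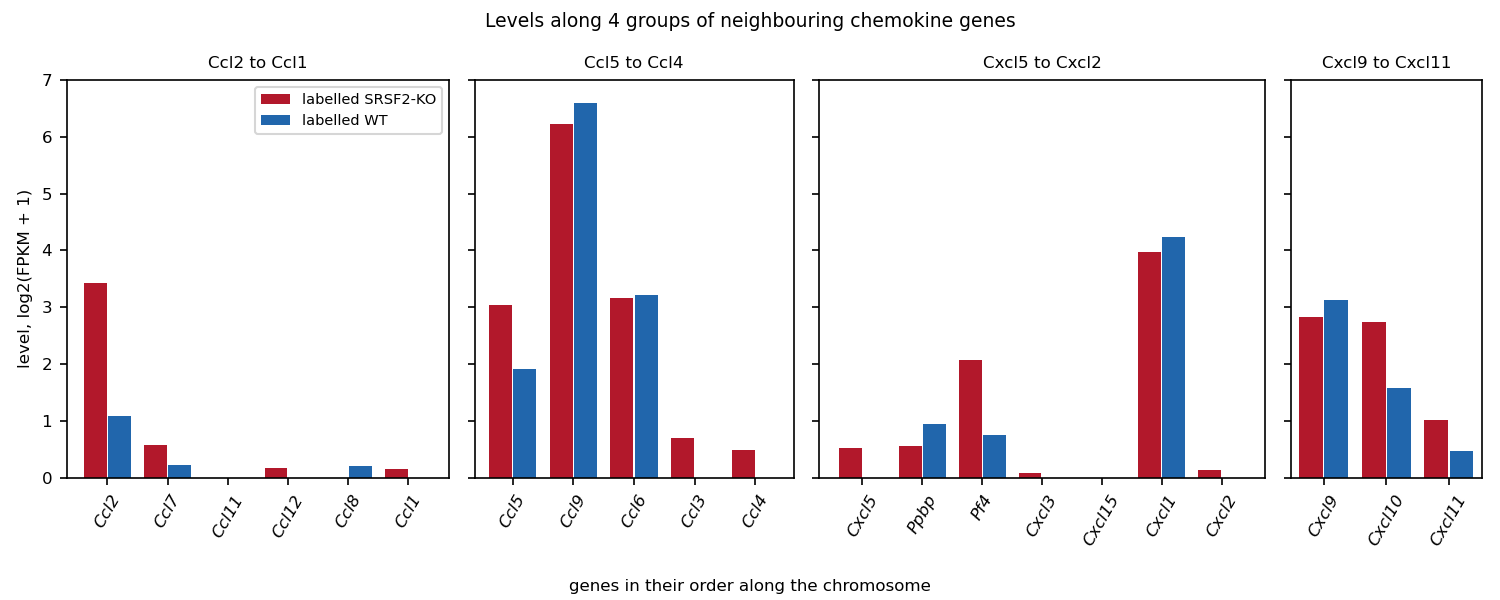
Levels of the genes in 4 groups of neighbours, in RefSeq order along the chromosome (x axis), as bars of log2(FPKM + 1) with SRSF2-KO left of WT. Each group mixes high and low genes: Ccl2 stands out of the first group and Ccl9 is highest in the second. Cxcl1 leads the third, followed by Pf4 in SRSF2-KO and by Ppbp in WT. In the last, Cxcl9 is lower in SRSF2-KO while Cxcl10 and Cxcl11 are higher.

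The other genes of the pathway were described by lists. Of 7 further chemokine receptors, 5 were higher and 2 lower in SRSF2-KO (7 and 0 with the TPM rescaling). Their median log2 ratio was 0.26, and by that ratio Cx3cr1 alone was at least 2-fold higher. Darc, the atypical receptor of venules and red cells, stood at 1.69 FPKM in SRSF2-KO and 0.812 FPKM in WT (ratio 2.08, interval 1.11 to 4.04). The scavenging receptor Ccbp2 was at 1.10 FPKM in SRSF2-KO and 0.669 FPKM in WT, within counting error (interval 0.933 to 2.94). Cmklr1, the chemerin receptor, was at 2.21 FPKM in SRSF2-KO and 1.67 FPKM in WT, within counting error. Of 16 genes of receptor signalling, 14 were higher and 2 lower. Their median log2 ratio was 0.25, and none passed 2-fold by that ratio, which understates low genes. Vav1, a leukocyte exchange factor, stood at 2.50 FPKM in SRSF2-KO and 0.922 FPKM in WT (ratio 2.71, interval 1.94 to 3.83). Rgs2 stood at 3.60 FPKM in SRSF2-KO and 1.99 FPKM in WT. Rgs1, which dampens chemokine signals in lymphocytes, was lower at 0.864 FPKM in SRSF2-KO against 1.98 FPKM in WT (ratio 0.436, interval 0.290 to 0.644). Prex1 was at 1.40 FPKM in SRSF2-KO and 2.08 FPKM in WT.

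Genes that induce chemokines were mixed. Of 21 cytokines, sensors and NF-kB genes, 20 were above 0, with 13 higher and 7 lower in SRSF2-KO. Their median log2 ratio was 0.33, and 4 were at least 2-fold higher by that ratio. Those 4 were Cd14, an endotoxin co-receptor (8.25 FPKM in SRSF2-KO and 1.35 FPKM in WT), the sensor Tlr2 (2.72 FPKM in SRSF2-KO and 0.811 FPKM in WT), and the NF-kB subunits Relb (3.21 FPKM in SRSF2-KO and 0.657 FPKM in WT) and Nfkb2 (5.83 FPKM in SRSF2-KO and 1.88 FPKM in WT). The inducing cytokines themselves were low: Il1b stood at 1.33 FPKM in SRSF2-KO and 1.77 FPKM in WT, Tnf at 0.296 FPKM in SRSF2-KO and was listed at 0 in WT, and Il6 was listed at 0 in both. Irf1, a regulator of interferon-induced genes, was at 15.1 FPKM in SRSF2-KO and 13.1 FPKM in WT, within counting error. Nfkbia, the inhibitor that NF-kB induces, was at 25.2 FPKM in SRSF2-KO and 32.2 FPKM in WT, and Il1r1 at 7.76 FPKM in SRSF2-KO and 9.61 FPKM in WT, a direction that turned with the TPM rescaling (log2 ratio 0.04).

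Of 15 leukocyte adhesion genes, 11 were higher and 4 lower, with a median log2 ratio of 0.28. Icam1, the ligand of the leukocyte integrins, was the only one at least 2-fold higher on the log2 ratio. It stood at 6.18 FPKM in SRSF2-KO and 1.82 FPKM in WT (ratio 3.39, interval 2.67 to 4.37). The integrin gene Itgam was at 1.19 FPKM in SRSF2-KO and 0.174 FPKM in WT (ratio 6.81, interval 3.77 to 12.4). Its log2 ratio of 0.90 fell short of 2-fold at this low level. Pecam1, an endothelial adhesion molecule, was at 2.81 FPKM in SRSF2-KO and 4.69 FPKM in WT. Icam2 was at 2.01 FPKM in SRSF2-KO and 2.80 FPKM in WT, within counting error (interval 0.357 to 1.42). All 6 sinusoidal endothelial markers were lower in SRSF2-KO, with none at 0 and a sum of 45.2 FPKM in SRSF2-KO and 104 FPKM in WT, and their part in these values was not tested. The 9 genes of chemokine presentation and processing had a median of -0.27, or -0.02 with the TPM rescaling. Gpc1 was at least 2-fold lower (0.466 FPKM in SRSF2-KO, 3.15 FPKM in WT) and the matrix protease Mmp2 higher (3.93 FPKM in SRSF2-KO, 0.402 FPKM in WT). The heparan sulfate carrier Sdc4, a surface on which chemokines are displayed, was at 94.2 FPKM in SRSF2-KO and 146 FPKM in WT, and the sheddase Adam10, which releases Cx3cl1 and Cxcl16 from membranes, at 8.40 FPKM in SRSF2-KO and 6.51 FPKM in WT.

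Bile duct cells, a known source of Cx3cl1 and Ccl20, had mixed markers. Of 6, 4 were higher and 2 lower in SRSF2-KO, with a sum of 13.5 FPKM in SRSF2-KO and 4.57 FPKM in WT and Cftr listed at 0 in WT. Cldn7 stood at 7.22 FPKM in SRSF2-KO and 1.02 FPKM in WT, and Sox9 at 4.80 FPKM in SRSF2-KO and 1.83 FPKM in WT, whereas the keratin gene Krt19 was at 0.426 FPKM in SRSF2-KO and 1.10 FPKM in WT. Among stellate and fibroblast markers, Col1a1 stood at 11.1 FPKM in SRSF2-KO and 0.622 FPKM in WT and Lum at 23.8 FPKM in SRSF2-KO and 3.15 FPKM in WT, while Lrat, a marker of resting stellate cells, was at 1.48 FPKM in SRSF2-KO and 2.76 FPKM in WT. The part of these cells in the ligand values was not tested.

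**Figure D5:**
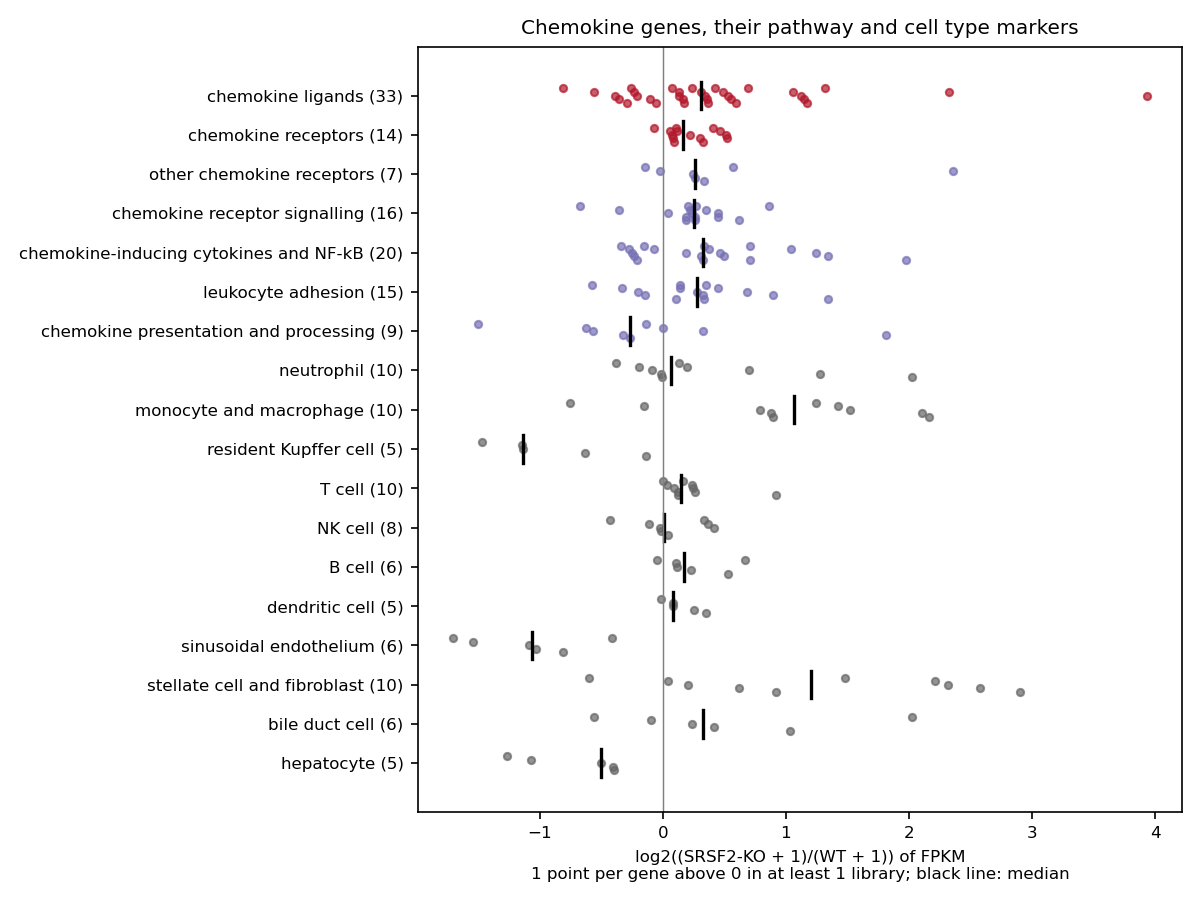
Log2 ratios of single genes (points) in chemokine ligands, chemokine receptors, 5 lists of pathway genes and 11 lists of cell type markers, with the number of genes above 0 in brackets and the median as a black line. Points right of 0 are higher in SRSF2-KO. The ligands have a median of 0.31 and a long tail to the right ending in Cxcl14, and the markers of monocytes and macrophages (1.07) and of stellate cells and fibroblasts (1.20) lie right of 0 while those of sinusoidal endothelium (-1.06) and resident Kupffer cells (-1.14) lie left.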

How the data were processed

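Liver RNA was sequenced on an Illumina HiSeq2000 as 1 library per genotype, per the series' design text. The authors deposited FPKM, scaled to transcript length and mapped fragments. Per the submitters' processing notes, Bowtie 0.12.2 and the mm9 build were used. For the FPKM program, annotation, strand setting and filters nothing is given in the sources used here. Deposited FPKM summed to 523254 in SRSF2-KO and 666262 in WT over 36771 rows, so 3 rescalings were tried. The row with the highest mean stood for a repeated symbol (Ccl25, Ccl21c). With no replicates, differences are described and not tested.

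Depths were fitted to whole-read steps with GENCODE M21 transcript lengths (an annotation of another build): 71.9% of 467 values and 75.1% of 434 values worth 1 to 3 reads came within 0.1 reads of whole numbers, in SRSF2-KO and WT. Intervals use median coding lengths of at least 400 bases. Python 3.11.15, numpy 2.4.6, pandas 2.3.3 and scipy 1.17.1 were used, and the functions were tested on simulated data. The members and the 16 lists (151 symbols, 3 under an older name) were chosen with earlier results of these data known. Members are named or counted, and from each list the genes to name were the 2 highest and 2 lowest log2 ratios among those reaching 1 FPKM, of which some are left out for length. Alb, Nfkb2, Tlr2, Il1b, Tnf, Il6, Irf1, Ly6g, Mpo, Prf1, Ncr1 and Cftr were named after their values were seen, as were the overlapping genes Art3, Zmynd15 and Il11ra1. Some genes are not reported here by name.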

Additional observations from a re-analysis of the deposited data

How the results depend on the processing

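Cxcl14 and Ccl2 were at least 2-fold higher under each pseudocount and rescaling tried. The count of 7 genes at least 2-fold higher was 2 with a pseudocount of 3 and between 5 and 8 otherwise. The count of 0 at least 2-fold lower was 1 with a pseudocount of 0.1 (Ccl24). The median log2 ratio of 0.24 was 0.95 and 0.12 with pseudocounts of 0.1 and 3. It was 0.55, 0.39 and 0.31 with the TPM rescaling, equal sums outside the 50 most abundant rows and the median ratio set to 1, which moved SRSF2-KO by 0.35, 0.29 and 0.07 log2 units against WT. These shifts apply to every row, so part of the rise in the median is the rescaling itself. Of all rows that passed the filter, 10.8%, 8.27% and 6.05% were then at least 2-fold higher, against 5.49% as deposited. Over all rows the higher share of calls was then 84.9%, 81.1% and 68.7%, against 63.0% as deposited. With filters of at least 5, 1 and 0.1 FPKM the median was 0.30, 0.37 and 0.32 over 12, 17 and 42 genes. Of 252 single-gene values of 42 genes, 198 moved by less than their counting interval or not at all, and none of a gene past 2-fold changed sign. The 198 overstate stability. Adding up all rows of a symbol, 1 of the settings, could move only Ccl25, as the other genes had 1 row each. Among genes above 0 in both libraries, those with few reads have intervals too wide to leave easily, such as Xcl1 (0.579 to 219). The other 54 values also include genes listed at 0 in 1 library, whose intervals are open at 1 end or reach 0. For these genes even small changes were counted as moves, such as Ccl1 from 0.162 to 0.170 with the median ratio set to 1. The split into 198 and 54 is thus no even measure of stability. An alternative chosen after seeing the data, the longest transcript, gave 20 in place of 17 intervals above 1. No paired analysis was possible because each genotype has 1 library. Counting error and the lack of replicates limit every gene under about 1 FPKM.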
